A study of Mus musculus with 18 samples.

Results

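CD4+ effector T cells that lacked CAR were compared between the colon lamina propria and the spleen of Rag-deficient host mice, 3 weeks after the T cells had been transferred. The comparison took in the 6 libraries labelled with those cells and organs, 3 from the colon and 3 from the spleen, of 18 libraries in the series, and every gene of the table. CAR is the constitutive androstane receptor, a nuclear receptor encoded by Nr1i3. The cells of both groups carried the genotype C57BL/6 Nr1i3-/-, and wild type cells (C57BL/6 CD45.1+) of the same organs and small intestine cells of both genotypes served only for side by side values. Each library was made from about 500 sorted cells. Hosts without Rag form neither T nor B lymphocytes, so that the T cells recovered from them descend from the transfer. Whether each library of a group stands for its own host is not stated, and the p-values therefore cover only library to library spread, part of which may be technical. Neither the age of the mice nor whether both genotypes shared a host is stated.

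CAR is best known from the liver, where it senses bile acids and foreign compounds and turns on genes of drug metabolism and transport. A T cell that enters the intestinal wall meets antigen, cytokines and low oxygen. Signals from the T cell receptor turn on early response genes within a short time, among them the Nr4a, Egr and AP-1 transcription factors, and activate NF-kB. NF-kB and the MAP kinases in turn induce their own inhibitors. Cells that stay in a tissue carry CD69, which blocks the exit receptor S1PR1, and lower the genes of recirculation through blood and lymph nodes.

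The 6 libraries held between 19605135 and 22763798 estimated counts, and 3 counts in a library correspond to between 0.131 and 0.185 CPM, the unit used here for counts scaled to the library total. The letters a, b and c name libraries by the ending of their column in the deposited table and are not replicate numbers from the labels. Library a stood apart in all 6 groups of the series, with 15466 to 16128 genes detected against 17013 to 18819 in the others, and 3.70% to 3.98% mitochondrial counts against 2.23% to 3.22%. The column names mark these cells as negative for CD45.1, and they were taken as the CAR-deficient cells by elimination. Nr1i3 could not check the genotype, since it had 0, 29 and 1 counts in colon libraries a, b and c and 0, 14 and 14 in spleen, against 0 to 36 in the 6 wild type libraries of these organs. Cd4, which marks the sorted cells, was measured at 138, 127 and 132 CPM in colon libraries a, b and c and 159, 109 and 126 in spleen. Trac, the constant part of the T cell receptor α chain, had 3007, 2601 and 1709 CPM in colon and 3628, 2355 and 1974 in spleen. Ptprc, which encodes CD45, had 2368, 2799 and 1487 CPM in colon and 2026, 2001 and 1972 in spleen, while Cd8a stayed between 0 and 1.32 CPM in all 6 libraries. Cd8b1 had 0.123, 10.6 and 2.32 CPM in colon and 0, 2.87 and 3.13 in spleen. Of 11 CD4 T cell markers none was at 0 in all 3 libraries of an organ, and Cd28 alone differed between the organs.

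Far more genes were higher in the colon than in the spleen. With a threshold of 0.05 on the adjusted p of edgeR's quasi-likelihood test, 69 of 14876 genes tested rose (0.464%) and 3 fell (0.0202%). The 69 genes that rose had log2 fold changes between 1.17 and 13.97, with a median of 3.14 and a median SE of 0.51, and the median over all genes tested was 0.00. In each of the 72 genes the 3 colon libraries and the 3 spleen libraries did not overlap. Across all genes tested, the colon libraries lay wholly above the spleen libraries in 8.19% and wholly below in 6.43%, and 1516 genes had an unadjusted p below 0.05. With the column ending as a block, 152 genes rose (1.02%) and 19 fell (0.128%), among them all 72 above.

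The calls of 9 genes held in all 6 fits that left out 1 library: Tnfaip3 (chr10:19000910-19015657), Nfkbiz (chr16:55811375-55838899), Dusp5 (chr19:53529109-53542431), Klf4 (chr4:55527143-55532466), Ifrd1 (chr12:40201567-40248504), Hilpda (chr6:29272488-29275446), Dennd4a (chr9:64811340-64919667), Tgif1 and Kdm6b (chr11:69398508-69413675). The positions are those of the whole genes in GENCODE on GRCm38. The other 63 lost their call in at least 1 of these fits. Of the 69 genes, 10 were still called without spleen library c, 17 without spleen a, 25 without colon b, 26 without spleen b, 43 without colon a and 52 without colon c. The fits called 10, 17, 25, 27, 47 and 63 genes higher in all, in the same order. All 69 kept their sign in each alternative that tested them, for which the lack of overlap between the organs left little other outcome. A fit of the 6 libraries alone called 14 genes higher and 0 lower, and leaving out library a of every group called 135 higher and 8 lower. DESeq2 called 377 higher and 79 lower, and limma with quality weights 482 and 54.

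**Figure D1:**
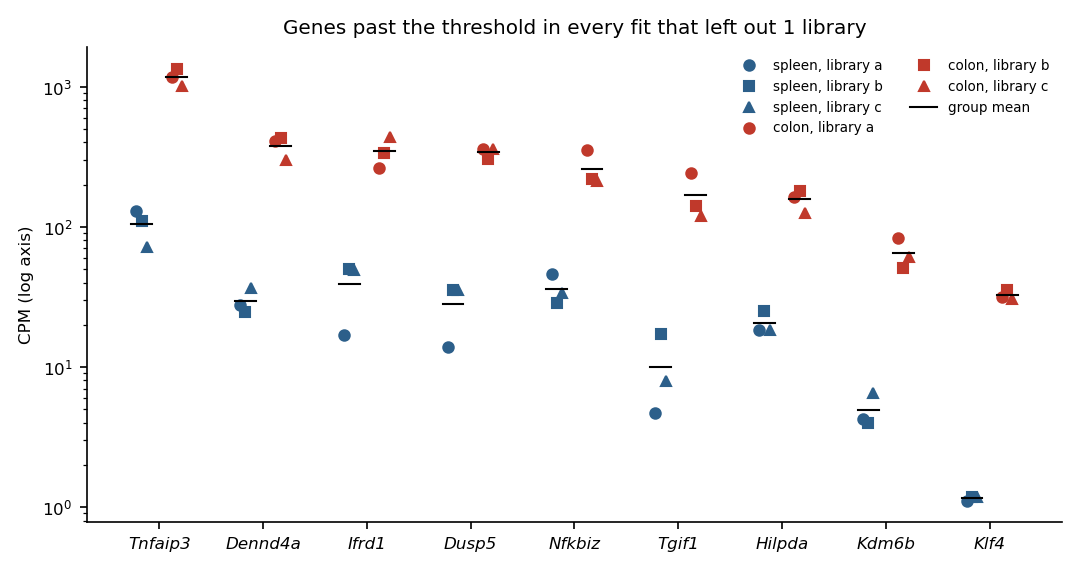
CPM on a log axis of the 9 genes past the threshold in every fit that left out 1 library, in the 3 spleen libraries (blue) and the 3 colon libraries (red), with circles, squares and triangles for libraries a, b and c and a line at each group mean. Tnfaip3 lay between 71.5 and 130.4 CPM in spleen and between 1015 and 1346 CPM in colon, and in none of the 9 genes did the groups overlap.

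NF-kB feedback inhibitors stood among the clearest changes. Tnfaip3 encodes A20, a ubiquitin-editing enzyme that ends NF-kB signalling. It was measured at 1166, 1346 and 1015 CPM in colon libraries a, b and c and at 130.4, 111 and 71.5 CPM in spleen, a log2 fold change of 3.50 ± 0.37 (SE; adjusted p = 0.000339), or 11.3-fold. All 3 colon libraries lay far above all 3 spleen libraries. Nfkbiz, which encodes the nuclear inhibitor and co-activator IκBζ, had 352, 219 and 211 CPM in colon and 46.0, 28.6 and 33.6 in spleen, a log2 fold change of 2.85 ± 0.28 (SE; adjusted p = 0.000199). Nfkbia encodes IκBα, which holds NF-kB in the cytoplasm. Its levels were 1341, 1774 and 2149 CPM in colon and 247, 479 and 271 in spleen, with a log2 fold change of 2.40 ± 0.35 (SE; adjusted p = 0.00651). Rel, the c-Rel subunit of NF-kB in lymphocytes, had 122, 133 and 107 CPM in colon and 30.3, 39.7 and 19.9 in spleen, a log2 fold change of 2.01 ± 0.37 (SE; adjusted p = 0.0209).

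Of the 17 NF-kB subunits and feedback inhibitors listed and tested, these 4 rose and none fell, with a list median of 0.67. The other subunits did not pass. Nfkb1 had a log2 fold change of 0.55 ± 0.43 (SE; adjusted p = 0.787) and Relb of 0.48 ± 0.37 (SE; adjusted p = 0.785). A further 4 members lay wholly above spleen without passing, namely Rela, the p65 subunit, Nfkb2, Nfkbid and Traf1. Rela had a log2 fold change of 0.67 ± 0.46 (SE; adjusted p = 0.72) and Nfkbid of 2.14 ± 0.47 (SE; adjusted p = 0.0649). Traf1, a TNF receptor adaptor, had a log2 fold change of 1.74 ± 0.46 (SE; adjusted p = 0.143) and passed with the block (adjusted p = 0.00936). Without spleen library c the calls of Nfkbia and Rel ended (adjusted p = 0.0606 and 0.149). The call of Rel ended also without spleen a, colon a and colon b, with adjusted p between 0.0626 and 0.11.

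Promoter sequences are shown for 6 genes that rose, each of which holds a match to a motif searched. The 6 were picked and do not stand for all genes that rose, most of which hold no match. Whether any factor binds these places was not measured. All stretches are the 170 bases before the RefSeq start farthest upstream (GRCm38.p6), written 5′ to 3′ on the gene's strand, with the matches in capitals. The motifs searched were TGACGTCA, the full site of CREB and ATF factors, TGANTCA, the site of AP-1, the CArG box of serum response factor and the NF-kB site, each on both strands. Matches may overlap. The first 3 stretches hold matches to the NF-kB site, and that of Tnfaip3 also a match to TGANTCA.
Nfkbia, chr12:55492648-55492817, minus strand: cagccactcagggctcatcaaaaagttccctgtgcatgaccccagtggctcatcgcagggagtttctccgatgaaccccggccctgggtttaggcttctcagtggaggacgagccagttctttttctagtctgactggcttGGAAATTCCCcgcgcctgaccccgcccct
Tnfaip3, chr10:19015411-19015580, minus strand: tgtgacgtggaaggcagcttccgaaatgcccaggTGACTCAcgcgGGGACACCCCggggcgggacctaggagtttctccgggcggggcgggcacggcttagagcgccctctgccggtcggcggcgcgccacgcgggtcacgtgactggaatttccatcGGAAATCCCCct
Rel, chr11:23770970-23771139, minus strand: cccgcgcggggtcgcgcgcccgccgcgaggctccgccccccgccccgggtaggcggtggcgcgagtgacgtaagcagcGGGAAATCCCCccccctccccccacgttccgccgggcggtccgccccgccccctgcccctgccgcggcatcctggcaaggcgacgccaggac
The next stretch holds a pair of adjoining CArG boxes, and the last pair of stretches holds TGACGTCA.
Dusp5, chr19:53528975-53529144, plus strand: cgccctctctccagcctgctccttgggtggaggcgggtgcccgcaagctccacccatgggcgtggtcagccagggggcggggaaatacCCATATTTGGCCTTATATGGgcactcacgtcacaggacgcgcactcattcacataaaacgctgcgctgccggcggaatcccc
Btg2, chr1:134079156-134079325, minus strand: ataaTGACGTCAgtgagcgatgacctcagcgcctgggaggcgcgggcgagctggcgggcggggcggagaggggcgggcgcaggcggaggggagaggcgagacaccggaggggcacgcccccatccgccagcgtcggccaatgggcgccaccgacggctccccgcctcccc
Areg, chr5:91139429-91139598, plus strand: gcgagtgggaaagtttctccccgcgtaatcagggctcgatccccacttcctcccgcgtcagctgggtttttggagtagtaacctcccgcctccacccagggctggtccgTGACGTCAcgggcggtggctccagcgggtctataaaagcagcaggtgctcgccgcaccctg

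The table of promoters held 54 of the 69 genes that rose, with 75 starts. In the 250 bases before the start, the NF-kB site matched 11 of the 75 promoters (14.7%), against 4.43% of 13354 promoters of genes tested and 3.90% of all 32851 promoters. TGACGTCA matched 7 of 75 (9.33%), against 2.44% of promoters of genes tested and 1.55% of all. TGANTCA matched 5 of 75 (6.67%), against 4.67% and 6.75%. The CArG box matched 1 of 75 (1.33%), that of Dusp5, against 1.21% and 1.47%. These shares are descriptions of the letters and were not tested.

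A single gene passed in each of the lists of MAP kinase feedback genes and of regulators of G protein signalling. Dusp5, a nuclear phosphatase that switches off ERK, was measured at 358, 303 and 359.8 CPM in colon and 13.9, 35.7 and 35.1 in spleen, a log2 fold change of 3.59 ± 0.39 (SE; adjusted p = 0.000367). It was the only one of 12 listed MAP kinase feedback genes to pass, although all 12 had log2 fold changes above 0, against 50% of all genes tested, with a median of 1.91. Dusp1 had 475, 880.0 and 1085 CPM in colon and 71.0, 249 and 58.9 in spleen, a log2 fold change of 2.69 ± 0.66 (SE; adjusted p = 0.113), and passed with the block (adjusted p = 0.0392), as did Dusp10 (adjusted p = 0.0392). Of 8 regulators of G protein signalling tested, 1 rose and none fell, with 3 below 0. It was Rgs2, which speeds the shut-off of G proteins and had 549, 747 and 579 CPM in colon and 51.9, 72.0 and 38.1 in spleen, a log2 fold change of 3.53 ± 0.72 (SE; adjusted p = 0.0381). Each single library left out ended the call of Rgs2, with adjusted p up to 0.239. Rgs1, of the same family, had 1896, 1812 and 1398 CPM in colon and 447, 803 and 422 in spleen with no overlap, a log2 fold change of 1.61 ± 0.38 (SE; adjusted p = 0.0915), and passed with the block (adjusted p = 0.0271). Pde4b, a phosphodiesterase that breaks down cyclic AMP, rose with a log2 fold change of 2.22 ± 0.37 (SE; adjusted p = 0.0133). Leaving out spleen a, b or c or colon b ended that call, with adjusted p up to 0.09.

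The 3 Nr4a genes, orphan nuclear receptors induced by T cell receptor signals, all rose. Nr4a1 (Nur77) had 43.9, 84.9 and 177 CPM in colon and 5.53, 7.43 and 3.62 in spleen, a log2 fold change of 4.20 ± 0.64 (SE; adjusted p = 0.00736). Nr4a2 had 453, 260.5 and 133 CPM in colon and 5.48, 26.8 and 5.66 in spleen, a log2 fold change of 4.48 ± 0.78 (SE; adjusted p = 0.0169). Nr4a3 had 333, 206 and 109 CPM in colon and 13.9, 9.16 and 4.17 in spleen, a log2 fold change of 4.57 ± 0.83 (SE; adjusted p = 0.0209). Library c was the highest colon library for Nr4a1 and the lowest for the other pair, so that the colon libraries ranked in different orders. Without spleen a or spleen c all 3 calls ended, with adjusted p between 0.0552 and 0.144, and that of Nr4a3 ended in 3 further fits.

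Other early response genes rose with them, 11 of 27 tested in all and none lower, with a list median of 1.91. The 11 were Tnfaip3, the 3 Nr4a genes, Klf4, Klf6, Sik1, Per1, Plk3, Btg2 and Csrnp1. Klf4, a Krüppel-like factor that restrains T cell proliferation, was close to constant within each organ, with 31.3, 35.4 and 30.6 CPM in colon and 1.11, 1.17 and 1.18 in spleen, a log2 fold change of 4.81 ± 0.61 (SE; adjusted p = 0.00193). Klf6 had 591, 1206 and 973 CPM in colon and 135, 292 and 177 in spleen, a log2 fold change of 2.20 ± 0.41 (SE; adjusted p = 0.0231). Btg2, an antiproliferative partner of the deadenylase complex, had 291, 464 and 491 CPM in colon and 93.2, 136 and 181 in spleen, a log2 fold change of 1.60 ± 0.33 (SE; adjusted p = 0.0448). Per1, a gene of the circadian clock, had 27.6, 27.8 and 23.5 CPM in colon and 0.422, 1.50 and 4.30 in spleen, a log2 fold change of 3.66 ± 0.71 (SE; adjusted p = 0.0293). The other 3 changes were 4.18 for Sik1, a salt-inducible kinase, 2.03 for Plk3, a stress kinase, and 4.87 for Csrnp1, a nuclear protein induced by AXIN1. Ifrd1, an interferon-related regulator outside the list, had 262, 338 and 439 CPM in colon and 17.0, 49.96 and 49.5 in spleen, a log2 fold change of 3.15 ± 0.41 (SE; adjusted p = 0.00213).

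Egr1 lay wholly above spleen but missed the threshold, with 155, 105 and 185 CPM in colon and 31.5, 51.4 and 13.4 in spleen, a log2 fold change of 2.21 ± 0.48 (SE; adjusted p = 0.0631), and passed with the block (adjusted p = 0.0355). Gadd45b, Ier2 and Egr2 did not pass in either fit, with log2 fold changes of 2.05 ± 0.56, 1.26 ± 0.48 and 1.58 ± 0.76 (SE). Myc overlapped between the organs, at 25.7, 13.1 and 30.3 CPM in colon and 15.4, 32.4 and 17.3 in spleen. The calls of Klf6, Btg2, Per1, Sik1 and Plk3 each ended in 4 or 5 of the 6 fits that left out 1 library, and that of Csrnp1 in all 6. The adjusted p then reached 0.227.

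Of 18 AP-1 and related bZIP factors tested, 5 rose and none fell, with a median of 1.82. They were Atf3, Fosb, Crem, Fosl2 and Maff. Atf3, a stress-induced factor, had 18.7, 51.8 and 96.8 CPM in colon, while the 3 spleen libraries together held 1 count. The colon to spleen ratio of Atf3 counts was 3740, with a counting interval of 672 to 148000 (95%, exact, counting error only). Its fitted log2 fold change of 11.34 ± 1.62 (SE; adjusted p = 0.00527) rests on that 1 count. Fosb had 305, 272 and 258 CPM in colon and 29.4, 16.5 and 14.4 in spleen, a log2 fold change of 3.79 ± 0.57 (SE; adjusted p = 0.00679). Crem, a cyclic AMP responsive factor whose short form ICER represses transcription, had 776, 1064 and 156 CPM in colon and 23.4, 35.8 and 32.7 in spleen, a log2 fold change of 4.44 ± 0.68 (SE; adjusted p = 0.00796). Colon library c held far less Crem than the other colon libraries but remained above all spleen libraries. Fosl2 (Fra-2) had 150.2, 78.8 and 40.0 CPM in colon and 4.69, 2.21 and 2.45 in spleen, a log2 fold change of 4.85 ± 0.92 (SE; adjusted p = 0.0258). Maff, a small Maf protein, was low in all 6 libraries, with 6.90, 4.49 and 6.13 CPM in colon and 0.0527, 0.705 and 0.227 in spleen, a log2 fold change of 4.12 ± 0.86 (SE; adjusted p = 0.0447).

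The best known members of the family did not pass. Fos had 375, 731 and 1209.8 CPM in colon and 124, 333 and 129 in spleen, a log2 fold change of 1.98 ± 0.57 (SE; adjusted p = 0.19), with no overlap but wide spread. Junb, at 1.70 ± 0.85 (SE; adjusted p = 0.527), Jun, at 1.01 ± 0.46 (SE; adjusted p = 0.472), and Jund, at 1.43 ± 0.67 (SE; adjusted p = 0.492), overlapped between the organs. Batf, an AP-1 factor of effector T cells, overlapped between the organs, with 275, 227 and 103 CPM in colon and 130.0, 248 and 112 in spleen. Without spleen c the calls of Atf3 and Fosb ended (adjusted p = 0.0606 and 0.0625), and those of Crem, Fosl2 and Maff ended there too. Without spleen a the calls of Crem, Fosl2 and Maff ended as well, and the adjusted p of these 5 genes reached 0.247 at most over the 6 fits.

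**Figure D2:**
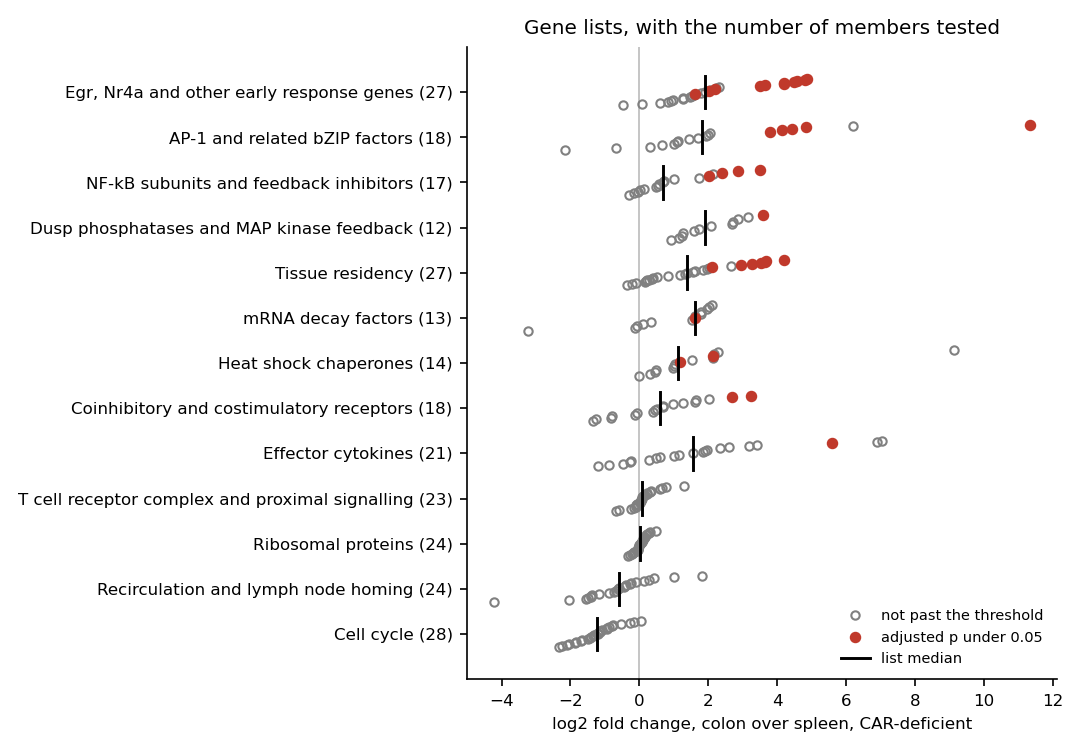
Log2 fold change, colon over spleen in CAR-deficient cells, of each tested member of 13 gene lists, with members past an adjusted p of 0.05 filled red, the others open and a black line at the list median. The early response and AP-1 lists have medians of 1.91 and 1.82, the T cell receptor and ribosomal lists lie around 0, and the cell cycle list has a median of -1.24 with no member past the threshold.

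Transcription and chromatin regulators outside those lists were among the clearest changes. Tgif1, a homeobox repressor of TGF-β target genes, had 242, 140.0 and 120.2 CPM in colon and 4.69, 17.3 and 7.93 in spleen, a log2 fold change of 4.07 ± 0.53 (SE; adjusted p = 0.00193). Skil (SnoN), another repressor of TGF-β signalling, had 121, 339 and 109.7 CPM in colon and 7.01, 19.4 and 18.5 in spleen, a log2 fold change of 3.67 ± 0.58 (SE; adjusted p = 0.00886). Pmepa1, an inhibitor of the same pathway, had 9.61, 29.5 and 33.6 CPM in colon and 1.05, 2.58 and 2.90 in spleen, a log2 fold change of 3.47 ± 0.60 (SE; adjusted p = 0.0147). No list of TGF-β genes was tested. Kdm6b, which removes the repressive mark H3K27me3, had 82.6, 50.8 and 60.9 CPM in colon and 4.22, 3.99 and 6.52 in spleen, a log2 fold change of 3.72 ± 0.54 (SE; adjusted p = 0.00527). Irf4, a factor of effector T cell differentiation induced by antigen receptor signals, had 128, 45.5 and 72.7 CPM in colon and 18.3, 10.6 and 9.38 in spleen, a log2 fold change of 2.68 ± 0.43 (SE; adjusted p = 0.00886).

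Dennd4a, a regulator of Rab proteins, had 407, 429 and 298 CPM in colon and 27.8, 24.7 and 36.5 in spleen, a log2 fold change of 3.67 ± 0.44 (SE; adjusted p = 0.00097). Tagap, a GTPase-activating protein of activated T cells, had 275, 246 and 242 CPM in colon and 49.9, 71.8 and 45.4 in spleen, a log2 fold change of 2.19 ± 0.35 (SE; adjusted p = 0.00886). Hexim1, an inhibitor of the elongation factor P-TEFb, had 134, 65.2 and 71.9 CPM in colon and 6.69, 22.5 and 17.6 in spleen, a log2 fold change of 2.54 ± 0.43 (SE; adjusted p = 0.0137). Spleen library a, with the fewest detected genes, was the lowest library for Hexim1. The calls of Skil, Irf4, Tagap and Hexim1 each ended in 2 of the 6 fits that left out 1 library, always without spleen c and otherwise without spleen a or b, with adjusted p up to 0.0838. That of Pmepa1 ended without any 1 of the 3 spleen libraries or colon b, with adjusted p up to 0.09.

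The other 18 genes that rose stand in no paragraph on a list. Mxd1, a MAX partner that opposes MYC, had 70.9, 202 and 104 CPM in colon and 11.3, 22.7 and 19.4 in spleen, a log2 fold change of 2.82 ± 0.48 (SE; adjusted p = 0.0147). Jmjd1c, a demethylase-like chromatin protein, had 237, 294 and 182 CPM in colon and 54.5, 52.7 and 81.9 in spleen, a log2 fold change of 1.91 ± 0.33 (SE; adjusted p = 0.0147). Tiparp, an ADP-ribosyltransferase induced by the aryl hydrocarbon receptor, had 74.6, 111 and 92.8 CPM in colon and 16.5, 25.7 and 34.7 in spleen, a log2 fold change of 1.86 ± 0.33 (SE; adjusted p = 0.0209). The colon libraries of these 3 genes all lay above the spleen libraries. Pim1, a survival kinase induced by cytokines, had 113, 61.9 and 69.9 CPM in colon and 25.9, 15.04 and 19.0 in spleen, a log2 fold change of 2.03 ± 0.42 (SE; adjusted p = 0.0454). Errfi1, a feedback inhibitor of the EGF receptor, had 91.5, 56.2 and 42.7 CPM in colon and 17.9, 12.5 and 14.6 in spleen, a log2 fold change of 2.08 ± 0.44 (SE; adjusted p = 0.0467). Prdx6, a peroxiredoxin, had 495, 895 and 499 CPM in colon and 137, 262 and 180.4 in spleen, a log2 fold change of 1.70 ± 0.34 (SE; adjusted p = 0.0371). Scara5, a ferritin receptor, had 48 counts in colon and 0 in spleen, and was at least 16.8-fold higher against the floor of 3 counts over the group. The remaining members were Neurl3, Rgcc, Zfand2a, Arl5b, Cwc25, Phlda1, Ubald2, Spty2d1, Wsb1, Pnrc1 and Akap13, with log2 fold changes from 3.97 for Rgcc to 1.25 for Akap13. Of the 18, the call of Ubald2 ended in 2 of the fits that left out 1 library and those of the others in 4 to 6, with adjusted p up to 0.243.

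Genes listed for tissue residency rose in part. Of 27 tissue residency genes tested, 7 rose and none fell, with a median of 1.39, and 10 rose with the block. The 7 were Cd69, Bhlhe40, Skil, Gpr183, Nr4a1, Per1 and Rgs2, of which Nr4a1 and Per1 also stand in the early response list. Cd69 had 4098, 3033 and 2204 CPM in colon and 357, 405 and 202 in spleen, a log2 fold change of 3.28 ± 0.53 (SE; adjusted p = 0.0101), or 9.69-fold. Bhlhe40, a transcription factor that sustains mitochondrial activity and cytokine output in tissue T cells, varied little within either organ, with 821, 787 and 821 CPM in colon and 161, 190.2 and 207 in spleen, a log2 fold change of 2.12 ± 0.34 (SE; adjusted p = 0.00886). Gpr183 (EBI2), a receptor for oxysterols that guides cells to lymphoid structures of the gut, had 326, 269 and 283 CPM in colon and 37.5, 32.9 and 43.6 in spleen, a log2 fold change of 2.95 ± 0.55 (SE; adjusted p = 0.0231). It was the only one of 21 chemokine and migration receptors tested to pass. Without spleen a or spleen c the calls of Cd69, Bhlhe40, Skil and Gpr183 all ended, with adjusted p between 0.0554 and 0.132. That of Bhlhe40 ended also without spleen b (adjusted p = 0.0516). The call of Gpr183 ended also without spleen b, colon a and colon b, with adjusted p up to 0.133.

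Several defining residency genes did not pass. Itgae, which encodes the αE chain (CD103) that binds E-cadherin, had 27.2, 65.2 and 63.5 CPM in colon and 13.2, 3.34 and 8.24 in spleen, a log2 fold change of 2.65 ± 1.16 (SE; adjusted p = 0.438). Itga1 had a log2 fold change of 1.86 ± 1.20 (SE; adjusted p = 0.689) and Cxcr6 of 0.37 ± 0.34 (SE; adjusted p = 0.844). Runx3 and Prdm1, transcription factors of residency, overlapped between the organs, with 78.0, 50.8 and 76.6 CPM against 88.6, 53.2 and 75.9 for Runx3 and 79.6, 77.2 and 55.0 against 98.8, 40.4 and 34.7 for Prdm1. The gut homing receptors Ccr9, with 0.247, 4.73 and 4.42 CPM in colon and 0.685, 0.611 and 4.71 in spleen, and Gpr15, with 0.0616, 1.87 and 36.8 and 13.2, 0 and 4.17, overlapped between the organs.

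None of 24 recirculation and lymph node homing genes passed, although 19 had log2 fold changes below 0, with a median of -0.60. Over all genes tested, 50% had log2 fold changes above 0. Ripor2 had 106, 82.3 and 100.2 CPM in colon and 372, 155 and 232 in spleen, a log2 fold change of -1.40 ± 0.31 (SE; adjusted p = 0.0649), and passed with the block (adjusted p = 0.0238). Klrg1, a receptor of terminal effector cells, had 129.5, 139.7 and 174 CPM in colon and 258, 317 and 569.6 in spleen, a log2 fold change of -1.37 ± 0.37 (SE; adjusted p = 0.16), and also passed with the block (adjusted p = 0.0356). S1pr5, an exit receptor, was measured at 0, 2.27 and 7.35 CPM in colon and 29.7, 32.7 and 118 in spleen, a log2 fold change of -4.22 ± 1.98 (SE; adjusted p = 0.485). S1pr1 had 14.7, 27.7 and 70.8 CPM in colon and 112, 61.8 and 124 in spleen, a log2 fold change of -1.39 ± 0.66 (SE; adjusted p = 0.492). Klf2, which drives S1pr1, overlapped between the organs, with 114, 86.8 and 257 and 137, 133 and 220.2 CPM. Of 17 integrin genes none passed. Itga4, the α4 chain of the gut homing integrin α4β7, had 189, 211 and 192 CPM in colon and 461, 263 and 406 in spleen, a log2 fold change of -0.93 ± 0.26 (SE; adjusted p = 0.159).

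Costimulatory and inhibitory receptors differed by member. Of 18 tested, Ctla4 and Cd28 rose and none fell, with a median of 0.60, and 5 rose with the block. Ctla4, the receptor that competes with CD28 for CD80 and CD86, had 383, 491 and 297 CPM in colon and 50.3, 59.6 and 14.5 in spleen, a log2 fold change of 3.23 ± 0.53 (SE; adjusted p = 0.0104). Cd28 had 838, 1173 and 709 CPM in colon and 29.5, 193 and 202 in spleen, a log2 fold change of 2.68 ± 0.52 (SE; adjusted p = 0.0293). Spleen library a held far less Cd28 than the other spleen libraries. Icos had 767, 749 and 462 CPM in colon and 224, 99.1 and 161 in spleen, a log2 fold change of 2.03 ± 0.45 (SE; adjusted p = 0.0698), and passed with the block (adjusted p = 0.00139). Pdcd1, which encodes PD-1, had 32.0, 28.5 and 17.0 CPM in colon and 34.8, 88.6 and 11.8 in spleen, and Tigit 87.1, 111 and 45.11 and 55.8, 78.0 and 18.7, both overlapping. Without spleen c both calls ended, that of Ctla4 ended also without spleen a, and that of Cd28 without spleen b, colon a and colon b, with adjusted p up to 0.109.

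One cytokine gene of 21 tested passed, Areg. It encodes amphiregulin, a ligand of the EGF receptor that promotes epithelial repair, and had 11.8, 44.5 and 12.3 CPM in colon and 0.0527, 0.940 and 0.408 in spleen, a log2 fold change of 5.59 ± 1.04 (SE; adjusted p = 0.0223). Ifng, the signature cytokine of Th1 cells, had 3899.9, 2157 and 1402 CPM in colon and 842, 754 and 497 in spleen, and the organs did not overlap. Its log2 fold change of 1.83 ± 0.64 (SE; adjusted p = 0.301) missed the threshold and passed with the block (adjusted p = 0.0162). In both organs library a had the most Ifng and library c the least. Tnf had 64.5, 68.5 and 90.3 CPM in colon and 9.01, 33.1 and 17.1 in spleen, a log2 fold change of 1.91 ± 0.49 (SE; adjusted p = 0.126). Il10 had 76.9, 47.3 and 21.5 CPM in colon and 17.3, 18.2 and 1.72 in spleen, a log2 fold change of 1.97 ± 0.98 (SE; adjusted p = 0.518). Il22 was absent from colon library a and present in the others, with 0, 28.5 and 34.7 CPM in colon and 0, 0.0470 and 0.453 in spleen. Il17a was counted in colon library c alone, at 2.19 CPM, and Foxp3 reached 3.94 CPM at most.

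Cxcl10, a chemokine induced by interferon-γ that draws CXCR3+ cells, rose from 2.42, 14.4 and 19.9 CPM in spleen to 118, 131 and 256 in colon, a log2 fold change of 3.78 ± 0.77 (SE; adjusted p = 0.0381). Ifngr1, the ligand-binding chain of the interferon-γ receptor, had 842, 1145 and 483 CPM in colon and 216, 306 and 178 in spleen, a log2 fold change of 1.82 ± 0.37 (SE; adjusted p = 0.0371). None of 27 interferon response and MHC class I genes passed, with a median of -0.19. The calls of Areg and Ifngr1 each ended without any 1 of the 3 spleen libraries and without colon b, that of Ifngr1 also without colon a, and that of Cxcl10 in all 6 fits, with adjusted p up to 0.239.

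Single genes of lipid storage, glucose use and amino acid transport rose. Hilpda had the smallest p of all genes. It encodes an inhibitor of the lipase ATGL, induced by hypoxia and lipid, and had 164, 182 and 126 CPM in colon and 18.4, 25.0 and 18.5 in spleen, a log2 fold change of 2.93 ± 0.28 (SE; adjusted p = 0.000199), or 7.61-fold. Hk2, hexokinase 2, which commits glucose to glycolysis, had 36.7, 33.3 and 21.5 CPM in colon and 1.37, 5.17 and 3.85 in spleen, a log2 fold change of 3.13 ± 0.57 (SE; adjusted p = 0.0209). It was the only one of 24 glycolysis and hypoxia genes to pass, with a list median of 0.02. Slc3a2 (CD98), the heavy chain of amino acid transporters, rose with a log2 fold change of 1.94 ± 0.35 (SE; adjusted p = 0.0209), and Slc38a2, a glutamine transporter, with 1.74 ± 0.32 (SE; adjusted p = 0.0216).

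The heat shock list had 2 members past the threshold of 14, with 13 above 0, against 50% of all genes tested, and a median of 1.11. Dnajb1, a co-chaperone of HSP70, had 168, 603 and 353 CPM in colon and 60.4, 91.1 and 103 in spleen, a log2 fold change of 2.14 ± 0.40 (SE; adjusted p = 0.0216). Hsp90aa1 had 1398, 2039 and 1756 CPM in colon and 578, 978 and 747 in spleen, a log2 fold change of 1.17 ± 0.23 (SE; adjusted p = 0.0313). Hspa1a had a log2 fold change of 2.13 ± 0.54 (SE; adjusted p = 0.119) and did not pass. Hspa5 (BiP), of the unfolded protein response, had 1659.7, 1658 and 1473 CPM in colon and 564, 983 and 472 in spleen, a log2 fold change of 1.25 ± 0.30 (SE; adjusted p = 0.0919), and passed with the block (adjusted p = 0.00854). The calls of Hk2, Slc3a2, Slc38a2, Dnajb1 and Hsp90aa1 ended without spleen a, without spleen c and without colon b, with adjusted p up to 0.17 over the 6 fits.

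Genes that destabilise mRNA passed mainly with the block. Of 13 tested, only Btg2 passed, while 7 rose with the block, and the median was 1.60. Tob1 had 110.4, 92.7 and 90.4 CPM in colon and 31.4, 27.3 and 26.2 in spleen, a log2 fold change of 1.79 ± 0.39 (SE; adjusted p = 0.061) and an adjusted p of 0.031 with the block. Zfp36l2, which binds AU-rich elements, had 1282, 573 and 403 CPM in colon and 265, 93.1 and 167 in spleen, a log2 fold change of 2.11 ± 0.63 (SE; adjusted p = 0.209) and an adjusted p of 0.00314 with the block. Zc3h12a (Regnase-1), an RNase of cytokine transcripts, had 54.1, 29.9 and 38.7 CPM in colon and 15.8, 6.58 and 7.97 in spleen, a log2 fold change of 2.02 ± 0.55 (SE; adjusted p = 0.162) and an adjusted p of 0.00954 with the block. For Zfp36l2 library a was the highest in both organs.

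The genes that fell numbered 3. Nup37, a subunit of the nuclear pore, had 18.9, 19.6 and 23.5 CPM in colon and 154, 75.4 and 57.4 in spleen, a log2 fold change of -2.21 ± 0.44 (SE; adjusted p = 0.0361). Rad1, a subunit of the 9-1-1 clamp of the DNA damage checkpoint, had 4.07, 9.46 and 18.9 CPM in colon and 66.0, 39.1 and 39.2 in spleen, a log2 fold change of -2.15 ± 0.45 (SE; adjusted p = 0.0433). Hba-a1, which encodes α-globin of red cells, had 0, 0.148 and 0.219 CPM in colon, from 0, 3 and 5 counts, and 16.8, 213 and 32.8 in spleen, a log2 fold change of -9.34 ± 1.88 (SE; adjusted p = 0.0371). These 3 calls were not firm. Those of Nup37 and Hba-a1 ended in all 6 fits that left out 1 library and that of Rad1 in 5, with adjusted p up to 0.233.

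Cell cycle genes mostly had lower values in the colon, with none past the threshold. Of 28 tested, 27 had log2 fold changes below 0, with a median of -1.24, 15 lay wholly below spleen, and none passed. Over all genes tested, 50% had log2 fold changes above 0 and 6.43% lay wholly below spleen. Mki67, the proliferation marker Ki-67, had 119.8, 119.5 and 140.0 CPM in colon and 244, 336 and 227 in spleen, a log2 fold change of -1.09 ± 0.29 (SE; adjusted p = 0.146). Ccnb2, cyclin B2, had 59.8, 62.9 and 72.4 CPM in colon and 199, 346 and 166 in spleen, a log2 fold change of -1.86 ± 0.45 (SE; adjusted p = 0.103), and passed with the block (adjusted p = 0.042). Ube2c, a ubiquitin-conjugating enzyme of mitotic exit, had 78.6, 67.5 and 81.6 CPM in colon and 140.4, 288 and 173 in spleen, a log2 fold change of -1.40 ± 0.34 (SE; adjusted p = 0.107), and also passed with the block (adjusted p = 0.0271). Pcna, the DNA polymerase clamp, was the exception, at 608, 414 and 399 CPM in colon and 509, 521 and 357 in spleen.

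Lists on which no member passed included the T cell receptor complex (23 tested, median 0.08), ribosomal proteins (24, median 0.03), mitochondrially encoded genes (13, median 0.01), granzymes and other granule proteins (14, median -0.02), killer cell lectin-like receptors (14, median -0.81) and the Th17 programme (18, median 1.29). Of 16 tested targets of CAR and its relative PXR none passed either, with a median of 0.34. Abcb1a, a drug and bile acid efflux pump, had 21.0, 71.4 and 62.3 CPM in colon and 16.9, 29.2 and 40.5 in spleen, a log2 fold change of 0.84 ± 0.48 (SE; adjusted p = 0.628). Klre1, of the killer cell receptors, had 24.2, 8.03 and 7.13 CPM in colon and 148, 82.1 and 104 in spleen without overlap, a log2 fold change of -3.09 ± 1.12 (SE; adjusted p = 0.323). Prf1, perforin, had 5.67, 12.0 and 15.1 CPM in colon and 30.5, 40.8 and 32.3 in spleen, a log2 fold change of -1.66 ± 0.59 (SE; adjusted p = 0.31).

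Transcripts of other cells differed between the organs. Dcn, a matrix protein of fibroblasts, rose from 0, 1 and 1 counts in spleen to 70.2, 1049 and 692 CPM in colon, a ratio of counts of 20100 with a counting interval of 5560 to 166000. Of the 17 listed genes of stroma, endothelium and mast cells 11 were tested and Dcn alone passed, while the summed level was 220.1, 1602 and 1067 CPM in colon and 82.2, 50.6 and 58.5 CPM in spleen. Pecam1 made up most of the spleen sum, at 79.1, 46.8 and 52.2 CPM, and had 104, 50.5 and 62.4 CPM in colon. Krt19, a keratin of epithelium, and Guca2a, the hormone guanylin of colon epithelium, had 9.49, 46.0 and 4.77 and 5.30, 19.6 and 0.919 CPM in colon and 0 in all 3 spleen libraries. Against a floor of 3 counts over the group they were at least 419-fold and 177-fold higher in colon. The summed epithelial list was 104, 343 and 54.6 CPM in colon and 9.01, 78.4 and 24.3 CPM in spleen, with Epcam at 0 in colon library a. Most of the sum in spleen b and c was Car1. Its levels were 0, 65.5 and 15.4 CPM in spleen and 34.9, 21.8 and 2.80 in colon. In bulk RNA, fewer cells of a type and less RNA per cell cannot be told apart.

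Red cell and platelet genes went the other way, with a summed 18.0, 2.71 and 2.36 CPM in colon and 147, 2163 and 272 CPM in spleen. Sums for macrophage, dendritic, B cell and CD8 or NK lists overlapped between the organs. The CD8, NK and innate lymphoid list went both ways, with 7 of 15 tested members above 0 and 8 below. Ncr1, the NK receptor, was at 0 in all 3 colon libraries and had 0, 0.423 and 4.26 CPM in spleen. Gata3 had 53.3, 38.9 and 71.1 CPM in colon and 24.5, 21.9 and 34.6 in spleen, and Tcrg-C1 0.062, 41.9 and 18.6 and 0, 1.83 and 0.725. Lmna, a nuclear lamin of mechanically stiff tissues, Ctsl, a lysosomal protease, and Cd63, a vesicle protein, also rose, with log2 fold changes of 4.04 ± 0.70 (SE; adjusted p = 0.0164), 4.30 ± 0.79 (SE; adjusted p = 0.0209) and 5.29 ± 1.01 (SE; adjusted p = 0.0259). Each was lowest in colon library a, which also had the lowest Dcn. Over the 69 genes that rose, library a was the lowest colon library in 23, the middle in 23 and the highest in 23, and the part of other cells' RNA in them was not tested. Left out together, the marker genes of other cells changed the counts to 67 higher and 2 lower. The calls lost were those of the left out genes Dcn, Krt19 and Hba-a1 themselves. That fit took no RNA of other cells out of the remaining genes, so it cannot show how much of it they hold. Dcn and Krt19 lost their calls in all 6 fits that left out 1 library, with adjusted p up to 0.247, and Guca2a, Lmna, Ctsl and Cd63 in 4 or 5.

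**Figure D3:**
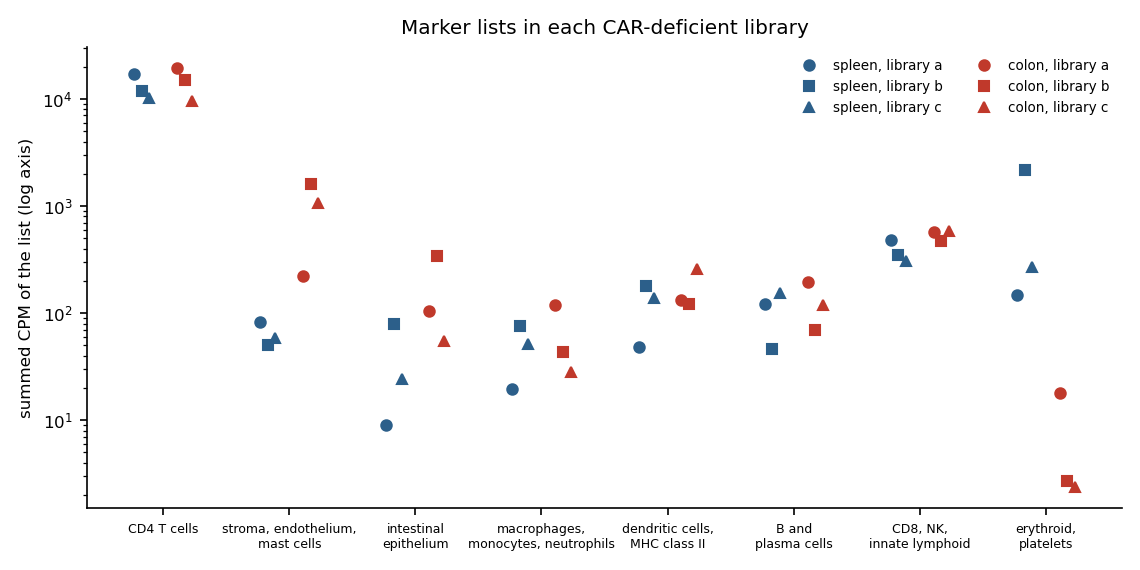
Summed CPM on a log axis of the listed marker genes of each cell type in the 3 spleen libraries (blue) and the 3 colon libraries (red), with circles, squares and triangles for libraries a, b and c. CD4 T cell sums overlap between the organs, the stromal sum is 220.1 to 1602 CPM in colon against 50.6 to 82.2 in spleen, and the red cell and platelet sum is 2.36 to 18.0 CPM in colon against 146.6 to 2163 in spleen. Most of the stromal sum in spleen is Pecam1, and most of the epithelial sum in spleen libraries b and c is Car1.

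Wild type cells of both organs were measured in other libraries. There, 55 genes were higher in colon (0.37%) and 1 lower (0.00672%), the globin gene Hbb-bt. All 72 genes called in CAR-deficient cells had the same sign in wild type, and 43 passed in both, 59.7% of the 72 and 76.8% of the 56. Across 14876 genes the fold changes of the genotypes had Pearson's r = 0.631 and Spearman's coefficient = 0.489, as a description, since genes are not independent and the same organs were sorted. Tnfaip3 had 985, 972 and 947 CPM in wild type colon and 87.2, 89.7 and 61.8 in wild type spleen, a log2 fold change of 3.60 ± 0.37 (SE; adjusted p = 0.000358). Cd69 changed by 3.22 ± 0.53 (SE; adjusted p = 0.0102), Nr4a1 by 5.26 ± 0.67 (SE; adjusted p = 0.0014) and Hilpda by 2.77 ± 0.28 (SE; adjusted p = 0.000358).

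Among the 29 genes past the threshold in CAR-deficient cells alone, Hexim1 had a log2 fold change of 0.97 ± 0.41 (SE; adjusted p = 0.544) in wild type and Hk2 of 1.89 ± 0.54 (SE; adjusted p = 0.252). The test of the difference between the genotypes found no such gene: 0 of 14876 passed in either direction with edgeR, 184 had an unadjusted p below 0.05, limma called 0 and DESeq2 4 in each direction, namely Pi4ka, Gm12396, Fam71a and Rpl9-ps6 with a positive and Gm28438, Gm43302, Trav7-2 and Msr1 with a negative signed difference, CAR-deficient minus wild type. The sign does not say in which genotype the change was larger. These 8 names were picked after their values were seen. Each of the 8 had 0 CPM in every library of a compared group. Their DESeq2 log2 differences were 18.1 to 24.1 in size, and their unadjusted p with edgeR lay between 0.042 and 0.194. Gm28438 had 28.5 to 78.6 CPM in CAR-deficient colon and 38.4 to 52.1 in CAR-deficient spleen, against 0 to 2.2 in wild type. For Hexim1 the difference was 1.56 ± 0.57 (SE; adjusted p = 1), for Crem 0.95 ± 0.84 (SE; adjusted p = 1) and for Tnfaip3 -0.11 ± 0.48 (SE; adjusted p = 1). No gene is therefore called different between the genotypes here.

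**Figure D4:**
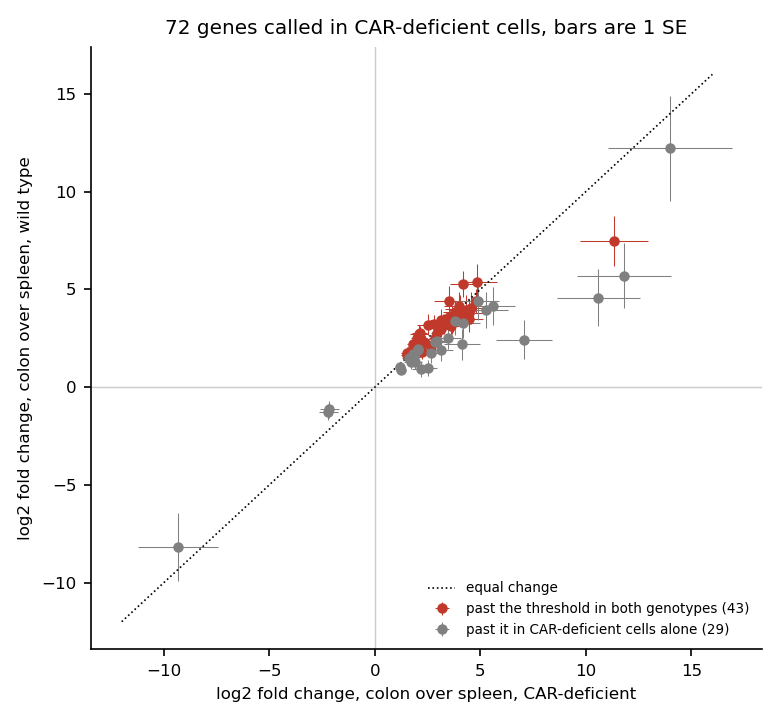
Log2 fold change, colon over spleen, of the 72 genes called in CAR-deficient cells, in those cells (horizontal axis) and in wild type cells (vertical axis), with bars of 1 SE, red for the 43 past the threshold in both genotypes and grey for the other 29. All 72 points have the same sign on both axes, and Hba-a1 is the lowest at -9.34 and -8.17.

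The small intestine of the same genotype was compared with the same 3 spleen libraries, so that its values are given side by side only. There 30 genes were higher than in spleen (0.202%) and 2 lower (0.0134%), the globin gene Hba-a2 and Dock3. Hba-a2, Dock3 and, in the wild type comparison, Hbb-bt were named after their values were seen. Cd69 had 5030.0, 2977 and 1757 CPM in small intestine libraries a, b and c, a log2 fold change against spleen of 3.34 ± 0.53 (SE; adjusted p = 0.0139). Tnfaip3 changed by 3.19 ± 0.37 (SE; adjusted p = 0.00147), Hilpda by 2.99 ± 0.28 (SE; adjusted p = 0.000179) and Nr4a1 by 4.99 ± 0.66 (SE; adjusted p = 0.0038). Crem had 169, 138 and 94.2 CPM in small intestine, a change of 2.13 ± 0.62 (SE; adjusted p = 0.34), and Lmna had 9.68, 6.24 and 14.6, a change of 0.92 ± 0.63 (SE; adjusted p = 0.841). The direct test of colon against small intestine found 0 genes past the threshold in either direction with edgeR, while DESeq2 called 71 higher and 7 lower in colon. Among those higher were Crem and Lmna and the listed markers of other cells Krt19, Car1, Pdgfra and Col1a2. The marker names were picked after their values were seen. For Crem the colon to small intestine log2 difference was 2.31 ± 0.62 (SE; adjusted p = 0.744) and for Lmna 3.12 ± 0.67 (SE; adjusted p = 0.744). Leaving out library a of every group gave 29 genes higher in colon than in small intestine.

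**Figure D5:**
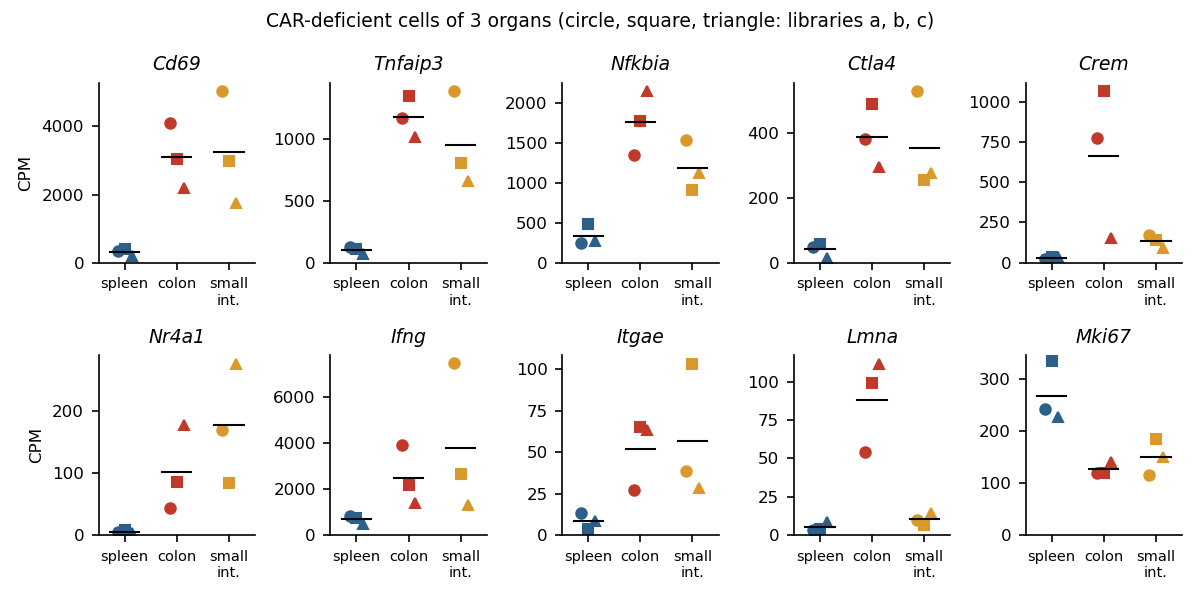
CPM of 10 genes in CAR-deficient cells of spleen (blue), colon (red) and small intestine (yellow), on linear axes from 0, with circles, squares and triangles for libraries a, b and c and a line at each group mean. Cd69, Tnfaip3, Nfkbia, Ctla4 and Nr4a1 are low in all 3 spleen libraries and higher in all 6 gut libraries, Crem and Lmna have their highest mean in colon, and Mki67 has its highest mean in spleen.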

How the data were processed

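RNA from about 500 sorted CD4+ T cells per library was amplified with a SMART-Seq v4 kit, which keeps no strand, and made into libraries with NEBNext Ultra II, per the labels' protocols. The submitters' processing notes name Salmon, DESeq2 and mm10. The annotation and all versions were not found in any label. The deposited table gives estimated counts for 34162 genes in each library, and 36 further value columns of it were not used here. Reads of overlapping or antisense genes cannot be told apart without strand. Estimated counts were rounded to whole numbers. Columns were assigned to groups by organ and CD45.1 sign. They carry no replicate numbers.

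Genes were filtered with filterByExpr by the 6 groups (14876 kept), scaled with TMM and fitted with 1 mean per group over all 18 libraries in edgeR 4.0.16 (limma 3.58.1, DESeq2 1.42.0, R 4.3.3), with the quasi-likelihood test, two-sided, and Benjamini-Hochberg adjustment over all genes at a threshold of 0.05. The SE was taken as the size of the log2 change divided by the root of the F statistic, and CPM use TMM-scaled library sizes. The test was checked on data simulated with the spread of each gene, with 50 genes changed at each size. The changed genes were drawn from those with a mean of at least 5 CPM, so genes below that level were not covered. Counts were drawn independently for each library, so the simulation held no effect of the column ending. It found 1 of 50 at 2-fold, 13 at 4-fold, 31 at 8-fold and 43 at 16-fold, with 1 false call. A gene that did not pass may therefore still differ between the organs. The difference between the genotypes was not simulated. Column endings were taken to pair libraries, from the data alone: deviations from the group means correlated across genes at 0.29, 0.191 and 0.292 for the 3 pairs of colon and spleen with the same ending, and from -0.294 to 0.14 for the 6 other pairs. Deviations from a mean of 3 libraries sum to 0, so that positive values for the same endings push the other pairs down. What an ending stands for is not stated, and library a stood apart in every group. The fit with the ending as a term is called the block.

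Named genes were the 15 largest changes and 15 smallest p per direction among called genes without overlap and with at least 5 CPM in 1 group, up to 6 called members of each list or the 2 with the smallest p, a fixed set (Nr1i3, Ptprc, Cd4, Cd8a, Trac, Foxp3, Il10, Ifng, Tnf, Il17a, Ccr9, Gpr15, Itgae, Abcb1a, Btg2) and list members described with their list. The comparison, lists and rules were chosen with earlier results of these data known, so that no list is independent evidence. Promoters came from the RefSeq table of GRCm38.p6. Alternatives were another scaling, filter, tool, set of libraries and block, leaving out each library, and leaving out marker genes.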

Additional observations from a re-analysis of the deposited data

How the results depend on the processing

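The 69 genes higher and 3 lower in colon became 377 and 79 with DESeq2, 482 and 54 with limma's voom with quality weights, 14 and 0 in a fit of the 6 libraries alone, and 135 and 8 without the library of the first column ending in every group, where 52 of the 69 and 1 of the 3 remained past the threshold. With the block by column ending they became 152 and 19 over 18 libraries and 18 and 0 over the 6 libraries alone. The block over 18 libraries ended none of the 72 calls. Leaving out 1 library gave between 10 and 63 genes higher and between 0 and 1 lower, and without colon c that 1 was Rad1. DESeq2 size factors gave 69 and 3, no filter 81 and 4, a filter of 5 CPM in 3 libraries 87 and 4, and robust fitting 66 and 3. Leaving out the marker genes gave 67 and 2, where the calls lost were those of markers themselves. All 69 kept their sign in each of these fits that tested them, which their lack of overlap made all but certain. The difference between genotypes stayed at 0 in each direction in every fit but DESeq2 (4 and 4). Colon against small intestine stayed at 0 except with DESeq2 (71 and 7) and without the first endings (29 higher). The causes were not tested.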

Other observations

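The block brought in 99 genes that did not pass without it, 83 higher and 16 lower in colon, and those named here were picked after their values were seen. Pde4d, a phosphodiesterase of cyclic AMP, had 174, 112 and 30.6 CPM in colon and 15.2, 13.7 and 6.34 in spleen, with an adjusted p of 0.0548 without the block and 0.000359 with it. Dnajb9, a chaperone of the endoplasmic reticulum, had 387, 296 and 127 CPM in colon and 103, 36.9 and 33.9 in spleen, with adjusted p of 0.211 and 0.000618. Dgat1, which makes triglyceride, had 283, 196 and 91.9 CPM in colon and 63.8, 33.1 and 18.6 in spleen, with adjusted p of 0.0714 and 0.00238. Cd44, the hyaluronan receptor of activated T cells, had 276, 246 and 292 CPM in colon and 81.8, 76.7 and 129.8 in spleen, with adjusted p of 0.0891 and 0.00353. Among the 16 lower genes were Ifit1bl1, with 4.19, 23.7 and 33.0 CPM in colon and 134, 124 and 172 in spleen (adjusted p = 0.114 and 0.00737), and the interferon-inducible GTPase Ifi47, with 339, 432 and 394 and 777, 854 and 855 CPM (adjusted p = 0.0981 and 0.0176).

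Without library a of every group, the genes higher in colon than in small intestine were led by Lum, Dcn, Sod3 and Fbln1, proteins found outside cells, with adjusted p of 0.00144, 0.00144, 0.00644 and 0.00644, and included Cxcl12, Postn, Col1a1 and Sparc. In the fit of all 18 libraries their adjusted p lay between 0.744 and 0.918. Lum, Dcn and Col1a1 stand on the marker list of stroma, endothelium and mast cells. In CAR-deficient libraries b and c, Dcn had 1049 and 692 CPM in colon and 9.15 and 8.44 in small intestine. The part of other cells' RNA in these calls was not tested.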
